A study of Rattus norvegicus with 12 samples.

Results

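Some annotated noncoding transcripts of fetal rat spinal cord were counted well in some libraries and at 0 or 1 read in the others, with nothing between. They were taken from the long noncoding RNA (lncRNA) table by a rule on the counts themselves: an identifier from NONCODE or Ensembl, each of the 6 counts at most 1 or at least 10, and at least 1 library of each kind. The rule took 261 transcripts, 253 with a NONCODE identifier (NONRATT) and 8 with an Ensembl identifier (ENSRNOT). They are 1.22% of the 21367 NONCODE and Ensembl transcripts and part of a table of 22591. The other 1224 transcripts of the table carry the prefix MSTRG, which the rule leaves out, and 152 of them (12.4%) had the same kind of counts. Below, a library is called high for a transcript at 10 counts or more and low at 1 or 0.

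The libraries came from the lumbosacral spinal cord of Wistar rat fetuses at embryonic day 19. The 3 ARM libraries are from fetuses with anorectal malformations induced with ethylenethiourea (ETU), a teratogen that suppresses the thyroid, and the 3 normal libraries are from fetuses without malformation. Since ETU exposure and malformation always go together in these samples, their effects cannot be told apart. The labels do not say that replicates are different animals or litters, and p-values therefore cover the spread among these 6 libraries, which may be technical. In this bulk tissue, fewer cells of a type and less RNA per cell also cannot be told apart.

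NONCODE and Ensembl are catalogues in which a gene locus can hold several transcript models that share exons. A read that falls in a shared exon has to be given to a model by the counting method, so models of a locus can exchange counts while the locus as a whole is transcribed at a steady level. Many lncRNA models lie in or beside protein-coding genes, so a gene symbol below is a name for the place in the genome, whatever the coding status of the transcript counted there.

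The table held 3285614 to 3865088 counts per library, and a count of 0 allows up to 0.776 to 0.913 CPM (counts scaled to a library total of 1000000) at these totals, for counting error only. The tissue check gave 85625 to 98096 counts over 13 transcripts at Meg3, an imprinted lncRNA abundant in neural tissue, in ARM and 70272 to 86356 in normal libraries. The nervous tissue lncRNA Miat had 17818 to 21036 counts in ARM and 14691 to 16944 in normal libraries. The liver marker locus Alb had 0 to 1 count in ARM and 0 to 4 in normal libraries, and the red cell marker locus Hbb 5 to 8 in ARM and 5 to 31 in normal libraries. Of the myosin loci looked up by gene name, Myh7 had 0 to 1 and Myh10 1 to 5 counts in both groups. Myh7b had 0 to 52 counts in ARM and 1 to 52 in normal libraries, and Myh9 0 to 134 in ARM and 0 to 126 in normal libraries. The Myh9 transcript and a Myh7b transcript were themselves taken by the rule, so nothing about tissue content is read from these ranges.

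Promoter sequences from RefSeq are shown for a locus whose transcript follows phenotype and for one whose transcript does not. They are Nfe2l1, which codes for a membrane-bound transcription factor that controls proteasome genes, and Dcun1d1, which codes for a protein that helps attach Nedd8 to cullins. Both were chosen after their values were seen. The sequences surround the starts that RefSeq annotates for these genes, 3 for Nfe2l1 and 1 for Dcun1d1. The transcripts counted here may start elsewhere. Each sequence runs from 250 bases before to 50 bases after a start, in assembly GRCr8, on the minus strand. Nfe2l1 start 1 is chr10:82309326-82309625, start 2 is chr10:82308881-82309180 and start 3 is chr10:82303349-82303648, and Dcun1d1 is chr2:120695943-120696242. Capitals mark matches on either strand to the TATA box letters TATAAA, to the promoter motif CCAAT and to the Sp1-type motif GGGCGG.

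Nfe2l1 start 1: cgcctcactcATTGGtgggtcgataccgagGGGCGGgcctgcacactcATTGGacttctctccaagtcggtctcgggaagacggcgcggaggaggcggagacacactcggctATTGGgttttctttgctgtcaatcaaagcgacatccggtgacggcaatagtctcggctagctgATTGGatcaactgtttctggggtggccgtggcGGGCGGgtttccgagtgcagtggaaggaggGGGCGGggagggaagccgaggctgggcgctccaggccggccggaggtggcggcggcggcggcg
Nfe2l1 start 2: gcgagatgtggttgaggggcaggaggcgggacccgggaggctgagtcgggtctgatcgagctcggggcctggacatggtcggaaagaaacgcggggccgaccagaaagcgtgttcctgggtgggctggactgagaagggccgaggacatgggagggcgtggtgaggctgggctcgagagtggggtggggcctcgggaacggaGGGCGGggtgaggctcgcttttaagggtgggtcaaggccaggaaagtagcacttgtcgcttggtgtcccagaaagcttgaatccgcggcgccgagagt
Nfe2l1 start 3: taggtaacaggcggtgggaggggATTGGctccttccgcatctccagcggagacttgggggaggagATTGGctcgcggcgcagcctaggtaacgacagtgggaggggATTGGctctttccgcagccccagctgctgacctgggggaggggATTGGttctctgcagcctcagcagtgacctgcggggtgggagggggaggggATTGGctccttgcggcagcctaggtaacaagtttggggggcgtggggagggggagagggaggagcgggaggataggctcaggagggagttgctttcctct
Dcun1d1: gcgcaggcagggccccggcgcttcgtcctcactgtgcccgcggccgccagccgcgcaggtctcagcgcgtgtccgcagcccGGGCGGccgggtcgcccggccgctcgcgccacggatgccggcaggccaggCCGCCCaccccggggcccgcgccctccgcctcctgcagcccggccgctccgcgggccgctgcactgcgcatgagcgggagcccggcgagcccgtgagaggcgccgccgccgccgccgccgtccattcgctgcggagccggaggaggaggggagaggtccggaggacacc

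None of the 4 sequences held TATAAA, which 14.2% of all 33469 promoters of the table hold. CCAAT was matched 4 times at Nfe2l1 start 1, 5 times at start 3 and 0 times at start 2 and at Dcun1d1, and 37.5% of all promoters hold it at least once. GGGCGG was matched 3 times at Nfe2l1 start 1, 1 time at start 2, 0 times at start 3 and 2 times at Dcun1d1, and 33.1% of all promoters hold it. The 3 Nfe2l1 starts had 29, 23 and 12 CpG sites and the Dcun1d1 start had 48, against a median of 7 over all promoters. The median over the 97 of 121 distinct member symbols with an entry was 21. The build of the table's own coordinates is not given in the sources used here, so no transcript was assigned to a start.

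The main question about these transcripts was whether being high or low follows phenotype. For 8 of the 261 (3.07%) it did: 5 were high in exactly the 3 ARM libraries and 3 in exactly the 3 normal libraries. The other 253 (96.9%) divided at least 1 group into high and low libraries. Of these, 147 divided the ARM libraries, 175 the normal libraries and 69 both. Of all 62 possible patterns, 55 occurred.

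The number of high libraries per transcript was 5 for 88 transcripts (33.7%), 4 for 42 (16.1%), 3 for 36 (13.8%), 2 for 40 (15.3%) and 1 for 55 (21.1%). A drop to 1 or 0 in a single library was thus the most frequent form. That library was an ARM one for 14, 13 and 5 transcripts (replicates 1, 2 and 3) and a normal one for 19, 20 and 17. The only high library was an ARM one for 10, 5 and 10 transcripts and a normal one for 7, 10 and 13. Of the 715 low values, each ARM library held 107 to 115 and each normal library 116 to 135, so no library held most of them. Within a library, low counts made up 41.0% to 44.1% of the 261 values in ARM and 44.4% to 51.7% in normal libraries. Over all 21367 NONCODE and Ensembl transcripts the share of low counts was 15.6% to 16.3%.

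**Figure D1:**
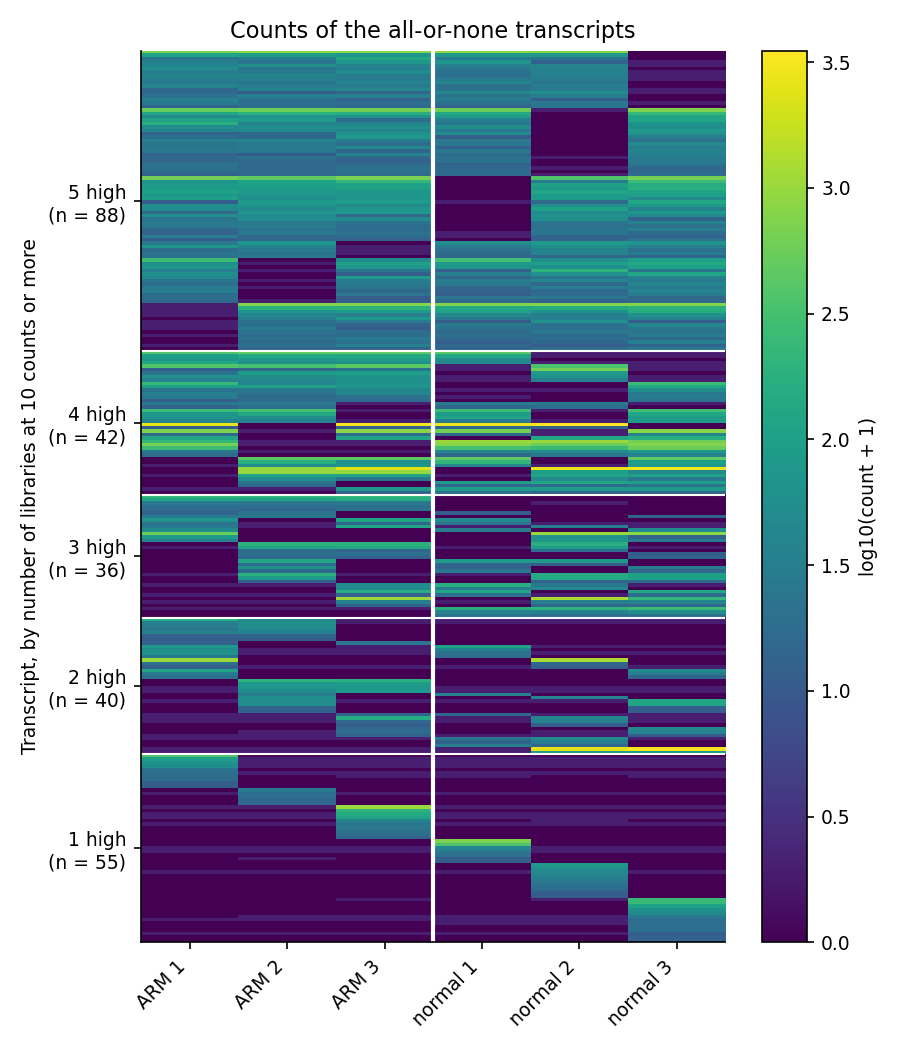
Counts of the 261 all-or-none transcripts (rows) in the 3 ARM and 3 normal libraries (columns), as log10 of count plus 1, with rows ordered by the number of high libraries. Dark blocks of low counts fall in every library, and 88 transcripts are low in a single library.

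Among the 36 transcripts high in 3 libraries, the pattern of all ARM libraries held 5 and the pattern of all normal libraries held 3. The other 18 patterns, which mix the groups, held 28 in all, with 0 to 3 each, a median of 2 and 4 patterns with none. The MSTRG transcripts with such counts held 0 of the exact ARM pattern and 3 of the exact normal pattern. These counts are a description, since the counts chose the transcripts.

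**Figure D2:**
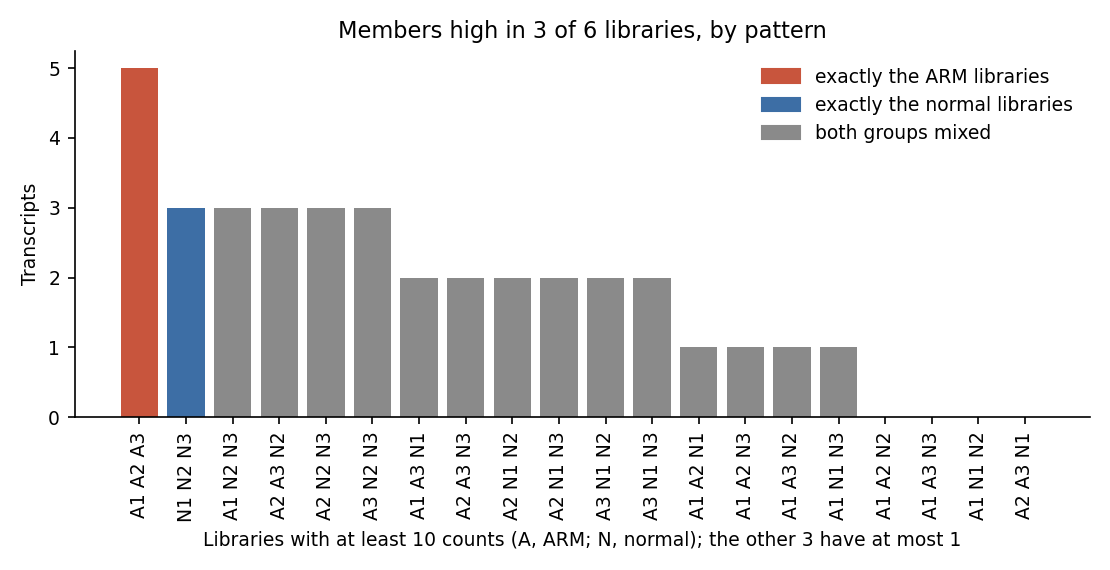
Number of all-or-none transcripts (vertical axis) for each of the 20 patterns with 3 high libraries (horizontal axis, A for ARM and N for normal, with replicate numbers). The exact ARM pattern has 5, the exact normal pattern has 3 and the mixed patterns have 0 to 3 each.

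Of the 5 transcripts high in ARM, plochy (NONRATT018820.2, chromosome 3, 152972056 to 152973501, 326 bases spliced) was the most abundant. It had 207, 204 and 197 counts in the ARM libraries and 0 in each normal library. Against a floor of 3 counts over the normal group it was at least 214-fold higher in ARM, scaled to the table totals. The veyshee transcript (NONRATT016571.2, chromosome 2, 187884503 to 187886288, 1460 bases) had 117, 117 and 156 counts in ARM and 0 in each normal library, at least 137-fold higher. In both, every ARM library was far above every normal library.

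The chywer transcript (NONRATT020090.2, chromosome 4, 594879 to 626742, 645 bases) had 28, 25 and 25 counts in ARM and 0, 1 and 0 in normal libraries, a ratio of 82.2 with a 95% counting interval of 14.3 to 3289. It is the only one of the 8 that overlaps no other transcript of the table. A transcript at Cep15, the gene of a centrosomal protein (NONRATT010765.2, chromosome 15, 12880354 to 12887892, 570 bases), had 17, 14 and 21 counts in ARM and 0 in each normal library, at least 18.3-fold higher.

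The foby locus on chromosome X held 2 of the 8, in opposite directions. NONRATT030868.2 (10657288 to 10660372, 505 bases) had 18, 19 and 19 counts in ARM and 0 in each normal library, at least 19.7-fold higher. NONRATT030866.2 (10657285 to 10660236, 547 bases) had 0 in each ARM library and 36, 35 and 54 counts in normal libraries, at least 39.5-fold lower in ARM. The 2 models share 2949 bases of span, 99.9% of NONRATT030866.2 and 95.6% of NONRATT030868.2, and each was detected only in the group where the other had 0.

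The remaining 2 were low in ARM. The Nfe2l1 transcript (NONRATT005942.2, chromosome 10, 84682448 to 84688899, 408 bases) had 1 count in each ARM library and 174, 204 and 269 counts in normal libraries. In CPM it was 59.9 ± 11.5 in normal libraries (SD, n = 3), and the 3 ARM counts of 1 have no spread of their own. The ratio of normal to ARM was 205 with a counting interval of 69.7 to 995, which holds only if a 1 in the table stands for 1 read. A transcript at Tmem219, the gene of a cell-death receptor of the plasma membrane (NONRATT003181.2, chromosome 1, 198322275 to 198354466, 2512 bases), had 0 in each ARM library and 22, 19 and 21 counts in normal libraries, at least 19.6-fold lower in ARM.

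In an edgeR quasi-likelihood fit over the whole table, 16 of 13343 tested transcripts passed an adjusted p of 0.05 (0.12%), 9 higher in ARM (0.0675%) and 7 lower (0.0525%). The filter on low counts kept 165 of the 261 all-or-none transcripts and left 96 out. It needs enough counts in as many libraries as a group holds, so members high in only 1 or 2 libraries were left out. This holds whatever their total: the farror transcript given below, with 5705 counts, was not tested. Of the 165, 3 were called higher (plochy, veyshee and chywer) and 1 lower (Nfe2l1), and 10 had an unadjusted p under 0.05 (6.06%, against 798 or 5.98% of all tested). All 4 are among the 8 that follow phenotype, and nothing is read from this, because the rule and the fit used the same counts. For the others of the 8, the edgeR adjusted p was 0.0527 for NONRATT030866.2, 0.0705 for NONRATT030868.2 and for Tmem219, and 0.109 for Cep15, and DESeq2 and limma-voom called all 8. When 1 library was left out, edgeR called plochy, veyshee and Nfe2l1 in 6 of 6 fits and chywer in 0 of 6 (edgeR adjusted p 0.0980 to 0.130).

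Of the 157 tested transcripts that do not follow phenotype, edgeR called 0, with 2 at an unadjusted p under 0.05, and limma-voom called 0. DESeq2, which gave an adjusted p to 194 transcripts that do not follow phenotype, called 6 of them, among 77 calls in the whole table. How many transcripts of the whole table had a DESeq2 adjusted p is not reported here, so nothing is read from these 6. ARM and normal values did not overlap in 1584 of all tested transcripts (11.9%). The Dcun1d1 transcript given below, which divides the normal group, had a log2 fold change of 0.52 with an SE of 1.40.

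The overlapping transcripts were not chosen by the rule, although reads in shared exons may pass between models. The 8 transcripts have 14 overlapping partners outside the rule, of which 10 were tested. EdgeR called 1 of the 10, against 0.12% of all transcripts, and 2 had an unadjusted p under 0.05, against 5.98% of all.

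The called partner was at Ndrg3, a gene of the Ndrg family. NONRATT018818.2 (chromosome 3, 152972161 to 153019386) overlaps 92.7% of the span of plochy and moved the opposite way. It had 101, 88 and 66 counts in ARM and 1155, 1233 and 1566 counts in normal libraries. Every ARM library was below every normal one, with a log2 fold change of -3.91 (SE 0.25, edgeR adjusted p 0.0043), and the call held in 6 of 6 fits without 1 library. Summed over both transcripts the locus had 308, 292 and 263 counts in ARM and 1155, 1233 and 1566 in normal libraries (-2.18, SE 0.16, edgeR adjusted p 0.00391). The plochy transcript made up 67.2% to 74.9% of the locus in ARM and 0% in normal libraries. The summed counts of the locus were therefore lower in ARM, where plochy had more counts than the Ndrg3 model. The sum does not correct for length, and plochy has 326 spliced bases and the Ndrg3 model 1985. Whether the number of RNA molecules from the locus differed was not tested.

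At veyshee the partner did not follow its neighbour. NONRATT016570.2, a single-exon model covering 40.7% of the span, had 58, 38 and 68 counts in ARM and 49, 44 and 50 in normal libraries, with overlapping groups (0.22, SE 0.25, edgeR adjusted p 0.922). The summed locus, which includes the all-or-none transcript, had 175, 155 and 224 counts in ARM and 49, 44 and 50 in normal libraries (1.95, SE 0.18, edgeR adjusted p 0.0141). This call was lost without normal replicate 1 (edgeR adjusted p 0.0538) and without the filter on low counts (0.0544).

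At foby both partners were level between the groups. NONRATT030865.2 had 99, 87 and 92 counts in ARM and 89, 90 and 97 in normal libraries (0.043, SE 0.16). NONRATT030867.2 had 141, 137 and 162 counts in ARM and 143, 129 and 125 in normal libraries (0.17, SE 0.14). The 4 transcripts summed to 258, 243 and 273 counts in ARM and 268, 254 and 276 in normal libraries (-0.038, SE 0.12, edgeR adjusted p 0.967), a sign that turned with total-count scaling (0.029). The ARM-only model was 6.96% to 7.82% of the locus in ARM and the normal-only model 13.4% to 19.6% in normal libraries, so the opposite patterns concern a minor share of the counts.

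At Nfe2l1 the partners also kept similar counts in both groups. The transcript beenee (NONRATT005943.2), which covers 34.2% of the span, had 213, 260 and 307 counts in ARM and 253, 242 and 293 in normal libraries (0.0045, SE 0.15). NONRATT005941.2 had 42, 34 and 32 counts in ARM and 33, 30 and 27 in normal libraries (0.29, SE 0.25). The locus summed to 256, 295 and 340 counts in ARM and 460, 476 and 589 in normal libraries. Every ARM library was below every normal one, but the edgeR adjusted p was 0.296 (-0.77, SE 0.13), while DESeq2 gave an adjusted p of 0.00755. The all-or-none transcript made up 0.294% to 0.391% of the locus in ARM and 37.8% to 45.7% in normal libraries.

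At Tmem219 the partner with the most counts, NONRATT003183.2, had 55, 71 and 78 counts in ARM and 77, 46 and 61 in normal libraries (0.16, SE 0.26). The summed locus had 81, 83 and 92 counts in ARM and 114, 76 and 107 in normal libraries (-0.21, SE 0.21, edgeR adjusted p 0.886), and the groups overlapped. The all-or-none transcript was 0% of the locus in ARM and at least 19.3% in each normal library.

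Cep15 had 8 models, the most of these 7 loci. Of its partners, the one with the most counts, NONRATT010760.2, had 24, 26 and 21 counts in ARM and 44, 24 and 35 in normal libraries (-0.51, SE 0.31, edgeR adjusted p 0.865). NONRATT010764.2 had 21, 49 and 43 counts in ARM and 16, 17 and 24 in normal libraries (1.00, SE 0.34, unadjusted p 0.0238, edgeR adjusted p 0.832). NONRATT010766.2 had 5, 0 and 4 counts in ARM and 39, 49 and 10 in normal libraries. It was not tested by edgeR because of low counts, and DESeq2 called it lower in ARM (DESeq2 adjusted p 0.0364). The summed locus had 84, 105 and 113 counts in ARM and 120, 123 and 92 in normal libraries (-0.15, SE 0.19, edgeR adjusted p 0.909), with overlapping groups.

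**Figure D3:**
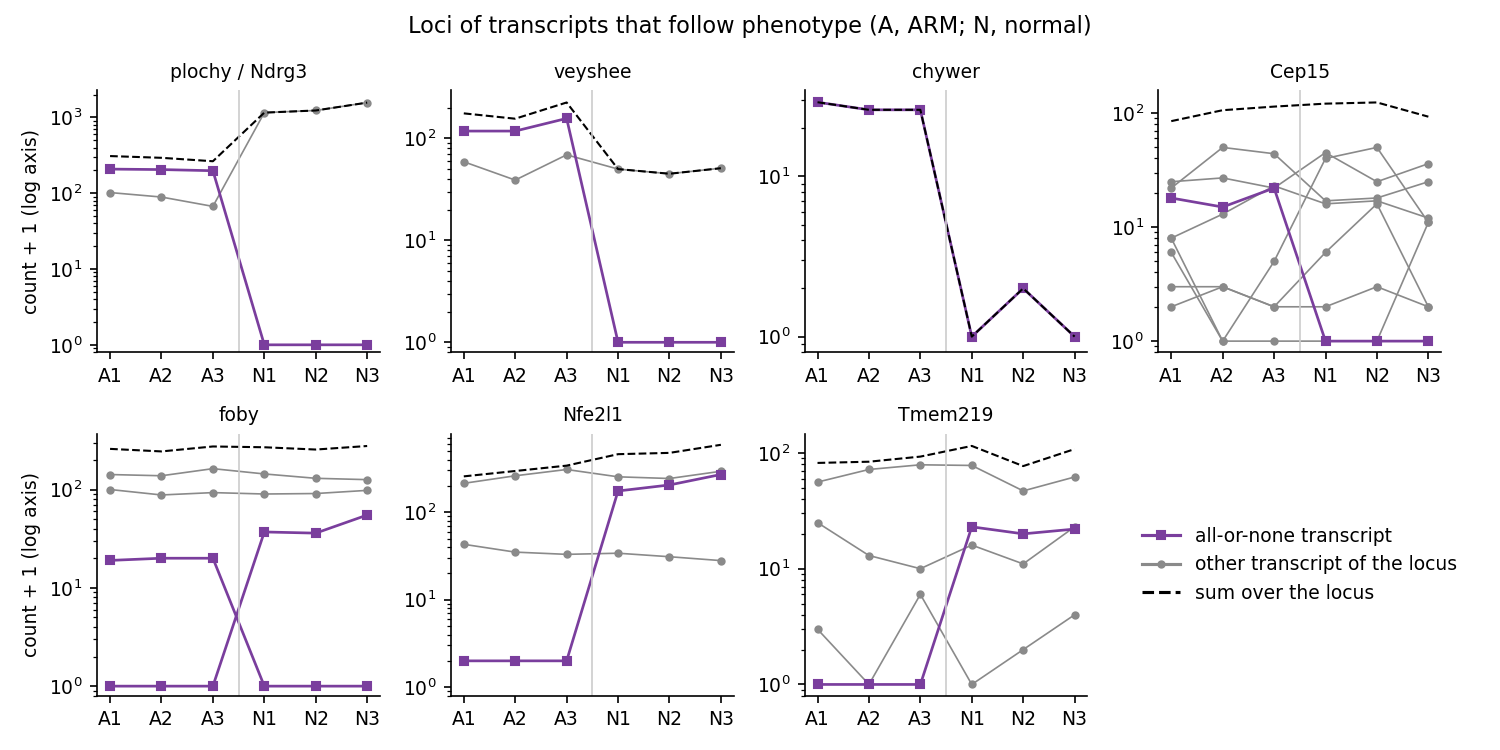
Counts plus 1 (log axis) in each library (A, ARM; N, normal) for the 7 loci of the 8 transcripts that follow phenotype. Purple squares are the all-or-none transcripts, grey circles the other transcripts of the locus and the dashed line their sum, which is close to level at foby, Cep15 and Tmem219 and lower in ARM at plochy and Ndrg3.

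Of the 7 loci, edgeR on summed counts called 3, veyshee and chywer higher in ARM and plochy with Ndrg3 lower, against 0.125% of the 11207 loci tested (0.0625% in each direction). The chywer locus is the single transcript given above, and its call was lost in each of the 6 fits without 1 library (edgeR adjusted p 0.0602 to 0.120). These sums contain the counts that the rule used, so the plochy locus, where the change is carried by the partner, is the one whose call does not rest on the chosen transcript. In all, 4 of the 7 loci did not pass when their transcripts were summed. Of these, Nfe2l1 was the only one whose all-or-none transcript had itself passed in edgeR.

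The most abundant all-or-none transcripts did not follow phenotype. The Dcun1d1 transcript (NONRATT016334.2, chromosome 2, 122476731 to 122504523) had 704, 876 and 819 counts in ARM and 875, 799 and 0 in normal libraries. Its partner NONRATT016333.2 had 10, 9 and 14 counts in ARM and 11, 12 and 52 in normal libraries, highest in normal replicate 3, where the first was at 0. The locus had a ratio of 18.7 between its highest and lowest CPM.

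Several of the most abundant were single-exon transcripts with no overlap and a count of 1 where they were low. The farror transcript (NONRATT028102.2, chromosome 8) had 1 count in each ARM library and 1, 2540 and 3161 in normal libraries. The plarflaw transcript (NONRATT002035.2, chromosome 1), the member with the highest level per length, had 720, 1 and 844 counts in ARM and 643, 1 and 814 in normal libraries. Darjy (NONRATT010720.2, chromosome 15) had 1, 756 and 772 counts in ARM and 749, 783 and 803 in normal libraries.

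Sheeshoy (NONRATT016147.2, chromosome 2) had 529, 582 and 622 counts in ARM and 555, 1 and 712 in normal libraries. Swargly (NONRATT000737.2, chromosome 1) had 221, 1 and 1 counts in ARM and 1021, 1028 and 614 in normal libraries. Of these 5, the 4 other than farror were high in libraries of both groups. No 2 of the 5 had the same set of low libraries.

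Another 2 of the 10 highest totals lie in loci with other transcripts. At C12h12orf43, NONRATT008064.2 had 663, 1 and 1 counts in ARM and 825, 550 and 770 in normal libraries, and the ratio of highest to lowest summed CPM was 11.6. The snoflu transcript NONRATT003363.2 had 623, 481 and 684 counts in ARM and 0, 374 and 632 in normal libraries. Its neighbour NONRATT003362.2 had 2457, 2040 and 2477 counts in ARM and 2022, 1410 and 2385 in normal libraries, so the locus had a ratio of only 1.88.

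Over all 261, the highest count of a transcript had a median of 49. It was at least 20 for 214 transcripts, at least 50 for 130, at least 100 for 79, at least 500 for 18 and at least 1000 for 7. Per length, the highest level of a member had a median of 19.1 CPM per kilobase of spliced length, against 10.3 over all NONCODE and Ensembl transcripts. Since the rule asks for a count of at least 10 in some library, a higher maximum than that of all transcripts is fixed by the choice.

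The members differed from the other transcripts in features that the rule did not use. By the coordinates of the table, 152 of 261 (58.2%) overlap another transcript by at least 1 base, against 6453 of 21106 NONCODE and Ensembl transcripts outside the rule (30.6%) and 31.8% of the 9750 with at least 10 counts in all 6 libraries. The file gives no strand, so an overlap can be with a transcript of the other strand, and reads of such pairs cannot be told apart here. Single-exon models made up 21.5% of members, 46.2% of those outside the rule and 53.3% of those high in all libraries. The median genomic span was 4069 bases for members and 1445 for those outside the rule, and the median spliced length 728 and 658 bases. A gene symbol was found for 123 members (47.1%) and for 38.6% of those outside the rule.

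Partial overlap was common, with 105 members covered by another transcript over at least 50% of their span and 32 of these covered in full. The 152 overlapping members have 284 different partners in 302 pairs. For 90 of them at least 1 partner had 10 counts or more in all 6 libraries. Another member was the partner of 14, an MSTRG transcript the partner of 1, and an MSTRG transcript with all-or-none counts the partner of 0.

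Taken by locus, the members fell in 254 groups of overlapping transcripts, 109 of which were the member alone. Of the 145 loci with other transcripts, 112 (77.2%) had a sum of at least 10 counts in all 6 libraries, 11 had a sum of at most 1 in some library and 7 of these a sum of 0. The highest over the lowest summed CPM was under 2 in 57 loci (39.3%), 2 to 10 in 61, and 10 or more in 20, beside the 7 with a 0. Among the 112, the median ratio was 1.99 (quartiles 1.46 and 2.86) and 50.9% were under 2. The 1982 other loci with several transcripts and sums of at least 10 throughout had a median of 1.60, with 75.0% under 2. A member's largest share of its locus in any library had a median of 54.7%, and was over 50% in 81 of 152.

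At 7 loci there were 2 members. Foby was 1 of them, and in the other 6 the pattern crossed phenotype. At perja on chromosome 15, NONRATT010755.2 had 0, 449 and 458 counts in ARM and 465, 0 and 485 in normal libraries. The overlapping NONRATT010756.2 had 1015, 0 and 0 counts in ARM and 0, 1251 and 0 in normal libraries. In each of the 6 libraries exactly 1 of the 2 was at 0, and the summed locus had 1015, 449 and 458 counts in ARM and 465, 1251 and 485 in normal libraries.

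At Nap1l1, the gene of a histone chaperone, the member NONRATT025796.2 had 0, 0 and 1028 counts in ARM and 0, 1251 and 223 in normal libraries. Its partner NONRATT025797.2 ends at the same base and had 1096, 1302 and 132 counts in ARM and 1237, 173 and 256 in normal libraries, high in each library where the member had 0. The 6 Nap1l1 models summed to 2221, 2481 and 2241 counts in ARM and 2298, 2502 and 2068 in normal libraries, a ratio in CPM of 1.26. The second member, NONRATT025792.2, had 25, 23 and 37 counts in ARM and 40, 24 and 0 in normal libraries.

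Ube2j2, the gene of an E2 ubiquitin enzyme of the endoplasmic reticulum, also had 2 members in a locus with a level sum, and both were at 0 in normal replicate 2. NONRATT022950.2 had 41, 46 and 38 counts in ARM and 29, 0 and 78 in normal libraries, and NONRATT022948.2 had 0, 16 and 0 counts in ARM and 24, 0 and 14 in normal libraries. The 5 models together had 765, 864 and 917 counts in ARM and 703, 750 and 1011 in normal libraries, a ratio of 1.32.

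Hnrnpa3, the gene of an RNA-binding protein, had an uneven sum. The member NONRATT018276.2 had 0, 81 and 0 counts in ARM and 0, 139 and 100 in normal libraries. The overlapping NONRATT018273.2, another member, had 76, 0 and 1 counts in ARM and 114, 1 and 1 in normal libraries. The long model NONRATT018275.2 had 605, 9961 and 260 counts in ARM and 358, 9297 and 11025 in normal libraries, and it held most of the counts in each library. The sum therefore differed within both groups, with a ratio of 41.3 between its highest and lowest library, while NONRATT018273.2 and the fourth model were highest in ARM replicate 1 and normal replicate 1. At Acat2, the gene of a cytosolic thiolase, the 2 members were low in different libraries (ratio 5.60), and at beeto on chromosome 6 the sum over 13 transcripts had a ratio of 1.44.

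**Figure D4:**
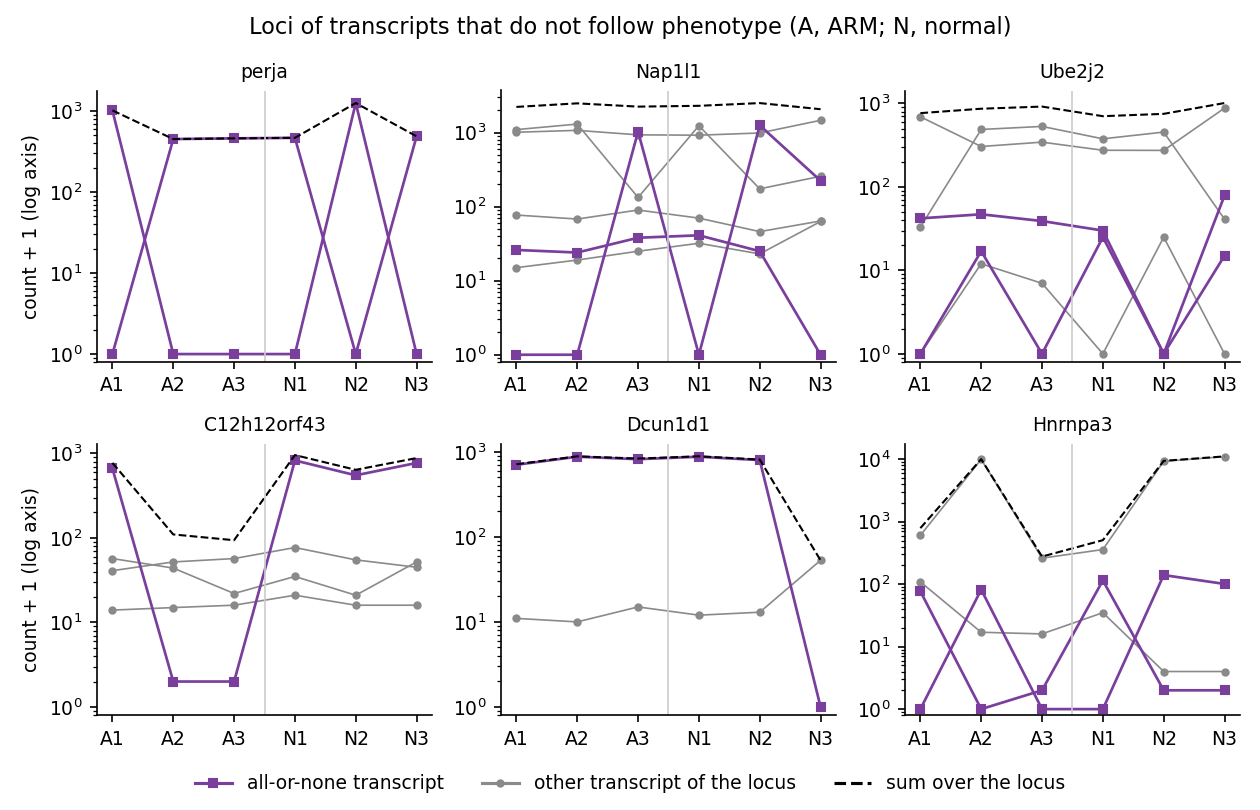
Counts plus 1 (log axis) in each library (A, ARM; N, normal) at 6 loci whose all-or-none transcripts do not follow phenotype. The sum (dashed) has a ratio of highest to lowest CPM of 1.26 at Nap1l1 and 1.32 at Ube2j2, and drops with the all-or-none transcript at C12h12orf43 and Dcun1d1, with ratios of 11.6 and 18.7.

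Low counts came in separate kinds. Of the 715 low values of the 261 transcripts, 474 were 0 and 241 were 1, and the 2 were seldom mixed: 163 transcripts had 0 in every low library, 86 had 1 in every low library and 12 had both. The kind went with exon structure. Of the 56 single-exon members, 47 (83.9%) had 1 in every low library and 7 had 0. Of the 205 with several exons, 39 (19.0%) had 1 in every low library and 156 (76.1%) had 0. Within the spliced members the share with 0 throughout was 79.6% of the 142 that overlap another transcript and 68.3% of the 63 that do not. Among the 8 that follow phenotype, 6 had 0 in every low library, Nfe2l1 had 1 and chywer had both. Why a low value is 1 rather than 0 was not tested, and a value of 1 may not stand for 1 read.

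**Figure D5:**
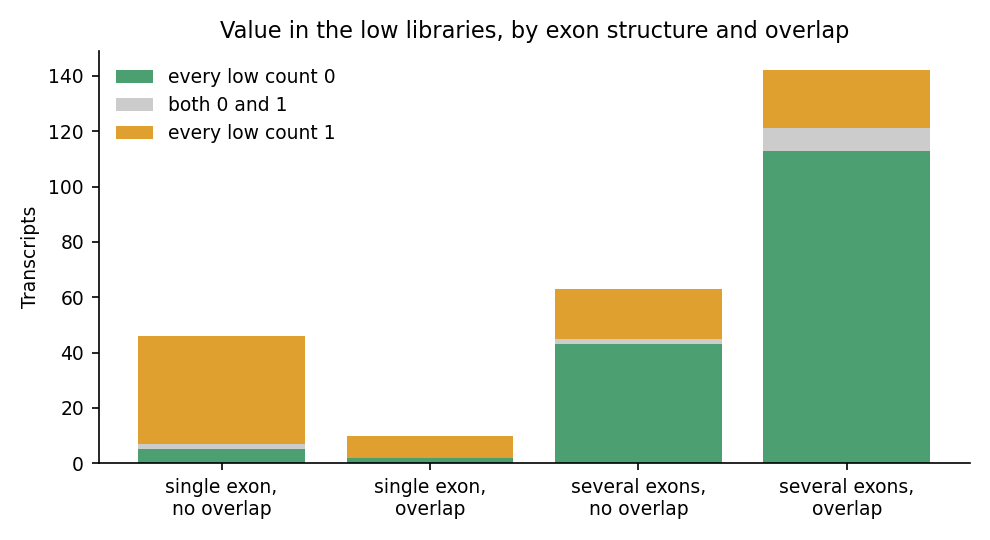
Number of all-or-none transcripts (vertical axis) by exon structure and overlap (horizontal axis), with colours for whether the counts in their low libraries are all 0, all 1 or both. Single-exon transcripts are mostly at 1 (47 of 56) and spliced ones mostly at 0 (156 of 205).

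Members were looked up in lists of genes that bear on fetal spinal cord. Of 21 transcripts at spinal and sensory neuron transcription factors, 2 were members. The one at Hoxc4 (NONRATT026351.2) had 33, 34 and 27 counts in ARM and 28, 31 and 1 in normal libraries. The one at Hoxb5 (NONRATT004806.2) had 1, 1 and 148 counts in ARM and 1 in each normal library. Hox genes set position along the body axis, and in both transcripts a single library differed from the other 5. The locus of the Hoxb5 transcript, with 8 overlapping models, had a ratio of 1.51.

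Of 78 transcripts at synapse, channel and receptor genes, 4 were members, among them those at Kcnk1 and Cacna1g. The transcript at Kcnk1, a potassium leak channel gene, had 95, 144 and 140 counts in ARM and 133, 1 and 1 in normal libraries. The transcript at Cacna1g, a T-type calcium channel gene, had 1, 1 and 80 counts in ARM and 91, 78 and 80 in normal libraries. Both divided 1 group and were steady in the other, Kcnk1 in ARM and Cacna1g in normal libraries.

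Of 168 transcripts of the ubiquitin system, 4 were members. Besides both at Ube2j2, the one at the deubiquitinase gene Usp54 had 17, 28 and 1 counts in ARM and 21, 40 and 20 in normal libraries, low in 1 ARM library only. Of 94 transcripts at RNA-binding and splicing genes 1 was a member (Hnrnpa3), and of 28 at imprinted and known lncRNA loci 1, a Meg3 model.

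That Meg3 model, NONRATT024618.2, had 0 in each ARM library and 356, 0 and 0 counts in normal libraries. The 19 overlapping transcripts of its locus summed to 142914 to 163795 counts in ARM and 120936 to 144297 in normal libraries, with a ratio of 1.34, so the member was a trace of an abundant locus. None of the 55 transcripts at cytoskeleton and motor genes, 35 at axon guidance and adhesion genes or 12 of the thyroid hormone pathway was a member.

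EdgeR called 0 of the list members, 10 of which were tested, and 0 of them follow phenotype. Over all tested transcripts of the lists, the called ones were 1 of 15 at the transcription factors and 1 of 35 at the cytoskeleton genes, both higher in ARM, and 0 of 54, 28, 81, 120, 9 and 20 in the other 6. Median log2 fold changes of the 8 lists were between -0.049 and 0.27, against 0.011 over all tested transcripts.

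Further members at genes of neural or dividing cells were picked after their values were seen. At Mki67, the gene of a proliferation marker, NONRATT003289.2 had 269, 0 and 48 counts in ARM and 298, 53 and 100 in normal libraries. At the imprinted gene Nnat, NONRATT019895.2 had 84, 86 and 104 counts in ARM and 0, 79 and 174 in normal libraries. At Sv2b, a synaptic vesicle protein gene, NONRATT002769.2 had 57, 1 and 106 counts in ARM and 80, 98 and 147 in normal libraries. Each was low in 1 library only. At Klc1, the gene of a kinesin light chain, NONRATT024688.2 had 11, 14 and 23 counts in ARM and 1, 616 and 1 in normal libraries. In normal replicate 2, where it was at 616, the overlapping NONRATT024689.2 had its lowest value, with 1957, 2865 and 2654 counts in ARM and 2510, 1613 and 2922 in normal libraries.

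The thresholds of the rule cut through a continuous range. Of the NONCODE and Ensembl transcripts, 960 had both a count of at most 1 and a count of at least 10, and 699 of these also had a value between and were left out. For 16 members the smallest high count was exactly 10, such as the Nupl1 transcript with 10, 0 and 0 counts in ARM and 0 in each normal library. A single count of 9 kept 17 transcripts out, among them 1 at Bud31 with 22, 36 and 62 counts in ARM and 0, 9 and 82 in normal libraries. A single count of 2 kept 40 out, among them 1 at Slc25a28 with 40, 118 and 89 counts in ARM and 195, 2 and 1 in normal libraries.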

How the data were processed

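The deposited lncRNA table gives, per the file headers, a raw count per transcript and library, with coordinates, length and locus name. Its 6 FPKM columns were not used here. For all samples alike, the tools listed in the submitters' processing notes are TopHat2 2.0.9, Cufflinks 2.1.1, Cuffdiff and CASAVA 1.8, whose roles are not stated, and the build listed is of mouse, although the identifiers are of rat. The program that counted reads, its use of strand and the build of the coordinates are not given there or in the file. Headings of the 3 normal columns match the group but no single label, so their replicate numbers are names. The 6 miRNA samples of the series were not used here.

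Transcripts whose coordinates share at least 1 base on a chromosome, on any strand, were joined into 18074 loci and their counts summed. Differences were tested on all transcripts, and on all loci, with edgeR 4.0.16 in R 4.3.3: filterByExpr, TMM scaling, phenotype as the only term, the quasi-likelihood test and Benjamini-Hochberg adjustment at 0.05. Log2 fold changes are ARM over normal, and the SE is their size divided by the square root of F. CPM values of transcripts and CPM ratios of summed loci use the library totals left by the filter, scaled by TMM. Floors, fold bounds, ratios of group counts and CPM per kilobase use the table totals. Where a group had no count, folds are bounds against 3 counts over the group, and ratios with 1 to 3 counts have exact (Clopper-Pearson) 95% intervals. Intervals and floors cover counting error only. The fits were tested on simulated data, in which neither all-or-none counts nor models that exchange counts were built in.

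The members, the lists and the tests were chosen with earlier results of these data known. Named transcripts were all that follow phenotype, the 10 others with the highest total, up to 3 per gene list, the partner with the most counts of each follower and up to 3 on either side of each threshold. Some transcripts that this rule names are not reported here. Other partners, loci with 2 members and those named as picked later were chosen after their values were seen. Symbols, and promoters in assembly GRCr8, are from RefSeq. Alternatives were DESeq2 1.42.0, its size factors in edgeR, limma-voom (limma 3.58.1), total-count scaling, no filter, other count thresholds, thresholds on counts scaled to the mean library size and each library left out. A ratio limit of 3 and overlaps without MSTRG transcripts were added after seeing the data.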

Additional observations from a re-analysis of the deposited data

How the results depend on the processing

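The number of transcripts under the rule was 163 with low taken as 0, 516 with low up to 3, 143 with high from 20, 72 with high from 50 and 186 on counts scaled to the mean library size. Those high in exactly the ARM libraries were then 9 (low up to 3), 3 (from 20) and 2 (from 50), and those high in exactly the normal libraries 5 (low up to 3) and 1 (from 50). With the rule applied to 5 libraries at a time they were 6 to 12 and 4 to 9, since fewer libraries must fit. Overlapping members numbered 80 (from 20) and 45 (from 50).

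Calls of members as higher in ARM were 9 with DESeq2, 5 with limma-voom and 2 to 6 without 1 library. They were 6 without ARM replicate 1 and 5 without normal replicate 1 or 2. Calls as lower were 5 with DESeq2, 3 with limma-voom, and 1 to 5 without 1 library. They were 5 without ARM replicate 1, 3 without normal replicate 1, and 2 without ARM replicate 2 or 3. The cause was not tested. Over the whole table, DESeq2 made 77 calls in either direction, and its number of transcripts with an adjusted p is not reported here. Limma-voom made 16 calls in either direction among the 13343 transcripts kept by the filter. The 8 members called by limma-voom were all among those that follow phenotype. Nothing is read from these calls of members, because the rule used the same counts. Whole-table calls in the fits without 1 library are not reported here. DESeq2 called 2 partners. Without the low-count filter 1 summed locus was called, and 1 to 2 without 1 library, with 1 without normal replicate 1. With a ratio limit of 3, 87 loci were under it. Signs turned for partners near 0: NONRATT003182.2 (-0.013) was 0.029 with total-count scaling and -0.59 to 0.28 without 1 library. NONRATT005943.2 was -0.016 with DESeq2 size factors, -0.027 with DESeq2, -0.018 without a filter and -0.082 to 0.085 without 1 library. Without 1 library NONRATT003183.2 was -0.039 to 0.39 and NONRATT030865.2 -0.062 to 0.093. The foby locus was 0.029 with total-count scaling and -0.082 to 0.0086 without 1 library.

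No paired analysis was possible because the headings of the normal columns carry no number that a label gives. The file has no strand, so same-strand overlap was not run. The median log2 fold change of all tested transcripts stayed between -0.0097 and 0.055 under these scalings. The floor of 3 counts is a bound for a count of 0 and covers counting error only. A low library shows only that the table gives the transcript a count of 0 or 1 there. Whether its RNA was absent from that library was not tested.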
